A study of Mus musculus with 6 samples.

Results

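The genes described here encode the sarcomere, the contractile unit of heart and skeletal muscle, and proteins that stabilise or turn it over. They are 49 named genes, each found by its symbol in the platform's probe annotation. All 49 had exactly 1 probe set, among 22206 transcript probe sets and 19505 genes with a symbol. The genes were proposed with earlier results of these arrays known, so their levels are given as a description.

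The samples were 6 single-colour arrays of RNA labelled as colon crypt of C57BL/6J mice. The control group, 3 arrays titled PBS and labelled as control mice, is compared with 3 arrays titled MBELN. Those came from mice given MBELN, vesicle-like particles prepared from mulberry bark, by oral gavage daily for 7 days. No genotype other than the strain is named for either group, and none of the sources used here gives the age or sex of the mice or the number of mice behind each array. Every p-value below measures the spread between these arrays, which may be technical.

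In a sarcomere, thick filaments of myosin heavy and light chains pull on thin filaments of actin, tropomyosin and troponin. Titin and myosin-binding protein C hold the thick filament, the M-band ties thick filaments together, and the Z-disc anchors thin filaments. Most of these proteins exist as isoforms encoded by separate genes, used in different mixtures by the ventricle, the atrium and the slow and fast fibres of skeletal muscle. The adult mouse ventricle mainly uses the alpha heavy chain encoded by Myh6. Colon crypts are epithelial glands and contain no striated muscle, and the smooth muscle of the bowel wall uses other heavy chain and actin genes.

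The values are read as log2. A dim level was set in each array from probe sets of smell and pheromone receptors, genes that colon and muscle hardly use, at the 95th percentile of their values. It lay between 3.99 in PBS 3 and 4.44 in MBELN 3. Values below it have no order. Probe sets differ in how brightly they respond, so levels are compared between arrays for 1 gene and never between genes. In bulk RNA, fewer cells of a type and less RNA per cell cannot be told apart.

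Markers of the labelled tissue were far lower in the arrays labelled MBELN. Over a list of 15 genes of gut epithelium, PBS 1, PBS 2 and PBS 3 had medians of 19.31, 18.18 and 19.25, while MBELN 1, MBELN 2 and MBELN 3 had 7.12, 3.32 and 5.78. Above the dim level were 14 or 15 of the 15 in each PBS array, 11 in MBELN 1, 2 in MBELN 2 and 12 in MBELN 3. A list of 13 heart muscle genes outside the sarcomere had all 13 above the dim level in MBELN 1 and in MBELN 3, with medians of 12.11 and 12.14. No PBS array had a median above 3.75 for these genes, and MBELN 2 had 3.45. Above the dim level were 4, 5 and 6 of the 13 in PBS 1, 2 and 3, and 5 in MBELN 2. In MBELN 2 these were Kcnj3 (12.84), Cacna1c (11.56), Ryr2 (11.22), Fabp3 (10.56) and Casq2 (5.22), named after their values had been seen. MBELN 2 carried neuronal markers, with a list median of 15.54 over 12 genes, where no other array exceeded 4.14. Spiked hybridisation controls averaged 9.79 to 10.09 in a set of 3 arrays (PBS 2 with MBELN 1 and MBELN 3), called the higher level here, and 8.43 to 8.98 in the lower level of the remaining 3. The part of any of these in the values below was not tested unless a value is given beside it.

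Sarcomere genes were bright in MBELN 1 and MBELN 3 and mostly dim elsewhere. The median over the 49 genes was 12.66 in MBELN 1 and 13.44 in MBELN 3, against 3.43 in MBELN 2 and 3.70, 3.69 and 3.68 in PBS 1, 2 and 3. Above the dim level were 37 genes in MBELN 1, 39 in MBELN 3, 15 in MBELN 2 and 16 to 19 in the PBS arrays. Of all transcript probe sets, 50.7%, 50.3% and 55.2% were above it in MBELN 1, MBELN 3 and MBELN 2, and 52.0% to 55.0% in PBS. In 40 of the 49 genes, MBELN 1 and MBELN 3 were the highest arrays, an order that 17.8% of all transcript probe sets shared. The gap to the next array was at least 4 log2 units in 30 genes, and in 1.5% of all probe sets. Of the 40, 35 were above the dim level in both of these arrays and 3 (Myh7b, Myh2 and Actn3) in no array, so that their order carries no meaning. In all, 8 genes lay below the dim level in all 6 arrays. These are Myh1, Myh2, Myh4, Myh7b, Tnnt3, Tnnc2, Mybpc1 and Actn3, and all except Myh7b are mainly genes of skeletal muscle fibres.

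**Figure D1:**
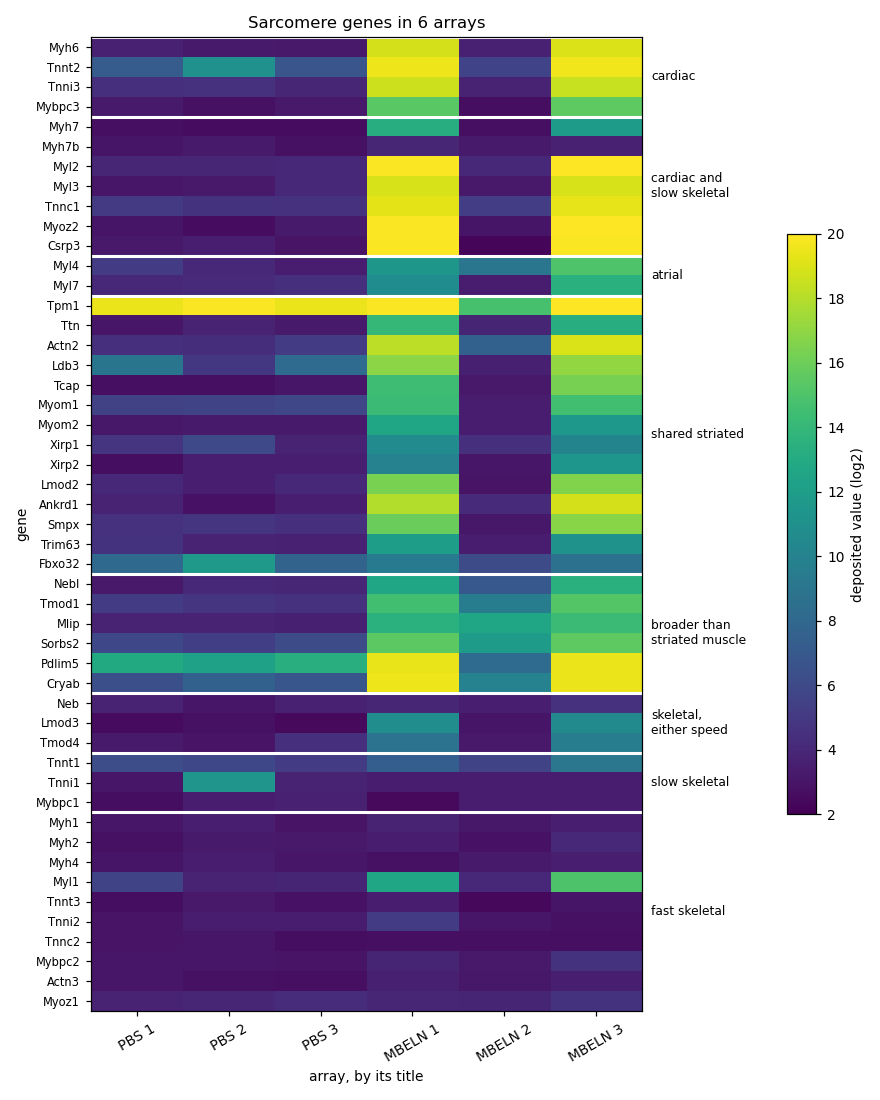
Deposited log2 value (colour) of the 49 genes (rows, grouped by the muscle type that mainly uses them) in the 6 arrays (columns). Bright cells fill most cardiac and shared striated rows of MBELN 1 and MBELN 3, and the fast skeletal rows stay dark in all 6 arrays except Myl1 and weak signals of single genes.

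Myosin heavy chains, the motors of the thick filament, showed the division between heart and skeletal muscle most plainly. Myh6 read 3.66, 3.28 and 3.24 in PBS 1, 2 and 3. Its MBELN values, in the same order of replicates as throughout, were 18.82, 3.68 and 19.03. MBELN 1 and MBELN 3 thus stood at least 25707-fold and 29847-fold above PBS. This bound is measured from 4.17, the mean dim level of the 3 PBS arrays, because each PBS value lay below the level of its array. Myh7, the beta heavy chain of the foetal ventricle and of slow skeletal fibres, read 2.72, 2.57 and 2.60 in PBS and 13.24, 2.77 and 11.91 in MBELN. The groups did not overlap in either gene, but in MBELN 2 each lay below the dim level, where values have no order.

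The fast skeletal heavy chains Myh1, Myh2 and Myh4, and Myh7b, a heavy chain gene whose transcript also carries a muscle microRNA, stayed dim. Their values lay between 2.78 and 3.98 over all 6 arrays. So the probe sets of these 4 relatives gave no signal in the arrays where Myh6 was bright. Myh6 and Myh7 are next to each other in the RefSeq gene table, as are Myh2 and Myh1, and Myh1 and Myh4, with 0 protein-coding genes between the members of each pair.

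The stretches before the start sites of Myh6 and Myh7 (bright in MBELN 1 and MBELN 3) and Myh4 (dim in every array) were picked as examples. They come from RefSeq, build GRCm38.p6, and hold the 250 bases before the start, 5′ to 3′ on the gene's strand. Myh6 is at chr14:54966608-54966857 on the minus strand, Myh7 at chr14:54994627-54994876 on the minus strand and Myh4 at chr11:67237562-67237811 on the plus strand. Capitals mark matches, on either strand, to 4 motifs known from muscle genes, which are the MEF2 site, the CArG box, AGATAA for GATA factors and the M-CAT element, CATTCC.
Myh6: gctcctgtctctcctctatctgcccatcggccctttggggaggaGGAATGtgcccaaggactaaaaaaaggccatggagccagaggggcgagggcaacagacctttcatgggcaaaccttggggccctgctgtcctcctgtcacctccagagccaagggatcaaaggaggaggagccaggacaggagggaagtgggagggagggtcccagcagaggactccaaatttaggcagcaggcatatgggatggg
Myh7: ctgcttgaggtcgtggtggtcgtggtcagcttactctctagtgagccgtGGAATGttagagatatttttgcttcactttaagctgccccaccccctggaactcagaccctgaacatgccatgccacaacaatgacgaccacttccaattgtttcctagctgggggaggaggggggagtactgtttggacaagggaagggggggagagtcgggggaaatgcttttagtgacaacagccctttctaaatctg
Myh4: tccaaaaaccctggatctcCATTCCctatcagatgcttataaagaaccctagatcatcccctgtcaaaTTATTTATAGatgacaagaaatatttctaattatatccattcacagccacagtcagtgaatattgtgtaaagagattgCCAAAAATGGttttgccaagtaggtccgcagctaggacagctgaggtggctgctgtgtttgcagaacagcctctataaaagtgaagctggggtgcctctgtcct
Myh6 and Myh7 each held 1 M-CAT match, at -206 and -201 from the start, and Myh4 held M-CAT, MEF2 and CArG matches at -231, -182 and -104. The dim skeletal gene thus held more of these letters than either bright cardiac gene. Of the 49 genes, 38 had a promoter in the table, with 51 promoters in all. M-CAT matched 16 of these 51 promoters (31.4%), against 12.6% of all 32851 promoters of the same length. For the CArG box the share was 13.7% against 1.47%, for the MEF2 site 11.8% against 2.92% and for GATA 19.6% against 9.99%. No 2 of the 4 motifs overlapped in a promoter of these genes. A match is a string of letters and not a shown binding site.

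Light chains stiffen the lever arm of myosin, and their isoforms separate ventricle, atrium and skeletal fibre. Myl2, the regulatory light chain of the ventricle and of slow fibres, read 3.95, 3.94 and 4.08 in PBS and 19.90, 4.05 and 19.93 in MBELN. Myl3, the essential light chain of the same muscles, read 3.10, 3.24 and 3.996 in PBS and 18.88, 3.23 and 18.92 in MBELN. In both genes, MBELN 2 fell within the PBS range, so the groups overlapped.

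The atrial light chains were also bright, and they differed between MBELN 1 and MBELN 3. Myl7, the atrial regulatory light chain, read 4.07, 4.13 and 4.46 in PBS and 10.74, 3.37 and 13.44 in MBELN. Myl4, the atrial essential light chain, which is also made in the foetal ventricle, read 5.14, 3.97 and 3.45 in PBS and 11.56, 9.06 and 15.07 in MBELN. MBELN 3 was the highest array for both. Of these, Myl4 alone was also bright in MBELN 2. The 250 bases before the start of Myl7, at chr11:5898783-5899032 on the minus strand of GRCm38.p6, are shown because they hold an M-CAT and a CArG match, at -70 and -61, separated by a few bases.
Myl7: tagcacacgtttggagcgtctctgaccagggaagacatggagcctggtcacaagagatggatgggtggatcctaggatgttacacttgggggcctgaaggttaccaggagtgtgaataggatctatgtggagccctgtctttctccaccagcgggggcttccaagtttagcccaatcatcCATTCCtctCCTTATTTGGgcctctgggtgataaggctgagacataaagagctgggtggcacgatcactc

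Myl1 encodes the essential light chain of fast skeletal fibres, and it was the exception among the fast skeletal genes. It read 5.67, 3.75 and 3.88 in PBS and 12.58, 4.05 and 14.94 in MBELN. The other 9 fast skeletal genes lay between 2.39 and 5.15 in all arrays. The highest of these values was that of Tnni2 in MBELN 1, against 2.80 in MBELN 3. Mybpc2 and Myoz1 lay just above the dim level of 4.44 in MBELN 3, at 4.65 and 4.61.

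**Figure D2:**
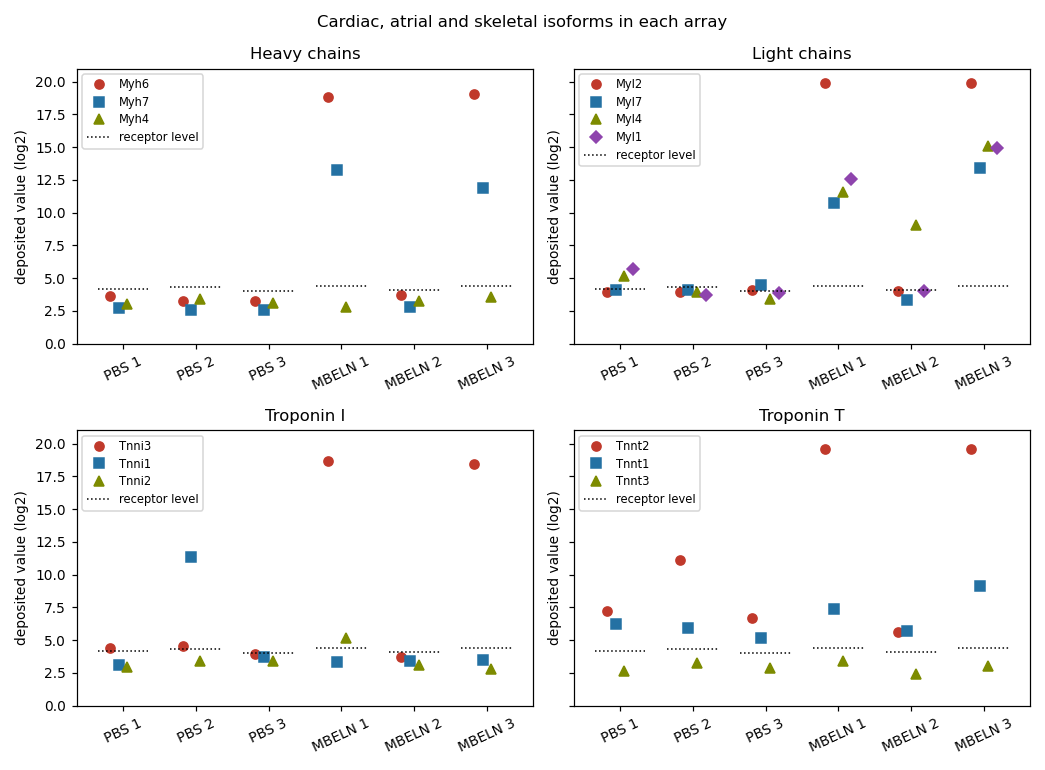
Deposited log2 values of heavy chains, light chains, troponin I and troponin T isoforms in each array, with the dim level as a dotted line (receptor level in the key). Cardiac isoforms (red) sit above 18 in MBELN 1 and MBELN 3, the fast skeletal isoforms Myh4 and Tnnt3 stay below the line in all 6 arrays, and Tnni1 stands out in PBS 2 at 11.37.

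Troponin makes the thin filament respond to calcium, through an inhibitory subunit (I), a tropomyosin-binding subunit (T) and a calcium-binding subunit (C). The cardiac inhibitory subunit gene Tnni3 read 4.42, 4.57 and 3.91 in PBS and 18.63, 3.75 and 18.48 in MBELN. Tnnc1, which encodes troponin C of heart and slow fibres, read 5.09, 4.60 and 4.58 in PBS and 19.27, 5.25 and 19.30 in MBELN. Its fast skeletal counterpart Tnnc2 stayed between 2.70 and 3.08 in all arrays. Heart subunits were thus bright in the same arrays in which the fast form was dim.

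Troponin I and T genes lie in pairs, and the members of a pair differed in their values. In the RefSeq gene table, Tnni3 and Tnnt1 have 0 protein-coding genes between them, Tnnt2 and Tnni1 have 1 (Lad1), and Tnni2 and Tnnt3 have 1 (Lsp1). Tnnt1, of slow skeletal fibres, read 6.24, 5.89 and 5.15 in PBS and 7.40, 5.71 and 9.12 in MBELN, a far smaller span than that of its neighbour Tnni3 although MBELN 1 and MBELN 3 were the highest arrays of each. Tnnt2, cardiac troponin T, read 7.24, 11.08 and 6.71 in PBS and 19.57, 5.61 and 19.61 in MBELN. Its neighbour Tnni1, the slow skeletal and embryonic cardiac troponin I, read 3.09, 11.37 and 3.69 in PBS and 3.36, 3.39 and 3.46 in MBELN. In PBS 2 both genes of this pair stood well above their values in PBS 1 and PBS 3.

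Tnnt2 is shown with the 250 bases before its start, at chr1:135836084-135836333 on the plus strand of GRCm38.p6, since it was a troponin gene above the dim level in all 6 arrays. It held a GATA match at -166 and an M-CAT match at -27.
Tnnt2: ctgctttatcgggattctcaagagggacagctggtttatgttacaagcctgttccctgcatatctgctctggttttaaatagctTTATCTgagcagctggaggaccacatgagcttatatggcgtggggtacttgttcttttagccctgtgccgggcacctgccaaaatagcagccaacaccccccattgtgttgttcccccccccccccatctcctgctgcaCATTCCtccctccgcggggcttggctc

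Of 12 smooth muscle genes, 10 had their highest PBS value in PBS 2. They include Myocd, whose PBS values all lay below the dim level, where values have no order. The list of 12 had a median of 15.40 in PBS 2 against 14.49 and 14.94 in PBS 1 and PBS 3, and 7.39, 3.92 and 6.87 in MBELN 1, 2 and 3. Tagln, an actin-binding protein of smooth muscle, read 19.63 in PBS 2 and 16.41 and 16.35 in PBS 1 and PBS 3. PBS 2 was the highest of all 6 arrays for 8 of the 12, while Mylk and Synm were highest in PBS 3, Des in MBELN 1 and Myocd in MBELN 3, these 4 being named after their values had been seen. Fbxo32, a ubiquitin ligase subunit that rises in muscle wasting, was also highest in PBS 2, with 8.18, 11.66 and 7.71 in PBS 1, 2 and 3. In the MBELN arrays Fbxo32 read 9.40, 6.16 and 8.73. The shares of all probe sets with PBS 2 highest were not counted, so nothing is read from the 10 or the 8. The part of smooth muscle in these values was not tested. Tpm1 encodes a tropomyosin of striated and smooth muscle and other cells. It read 19.44, 19.90 and 19.49 in PBS and 19.90, 14.73 and 19.93 in MBELN. MBELN 2 was its lowest array, and the rest lay at the top of the scale.

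The elastic and cross-linking proteins of the thick filament were bright in MBELN 1 and MBELN 3 and in no other array. Ttn, which encodes the molecular spring titin, read 3.12, 3.75 and 3.31 in PBS and 13.96, 3.83 and 13.24 in MBELN, at least 886-fold and 537-fold above PBS in MBELN 1 and MBELN 3. Mybpc3, the cardiac myosin-binding protein C, read 3.32, 2.83 and 3.24 in PBS and 15.38, 2.69 and 15.52 in MBELN. The slow and fast skeletal forms Mybpc1 and Mybpc2 stayed at or below 4.65. M-band genes had the same order, with Myom1 (myomesin 1) at 14.30 and 14.57 and Myom2 (myomesin 2) at 12.55 and 11.60 in MBELN 1 and MBELN 3. In MBELN 2 these read 3.43 and 3.41. The PBS values were 5.55 to 5.86 for Myom1, above the dim level, and 3.13 to 3.31 for Myom2, below it.

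Z-disc genes gave some of the widest spans. Myoz2, the calsarcin of heart and slow fibres, read 3.05, 2.60 and 3.29 in PBS and 19.90, 2.99 and 19.93 in MBELN. Csrp3, the muscle LIM protein, read 3.21, 3.52 and 2.97 in PBS and 19.86, 2.31 and 19.89 in MBELN. MBELN 1 and MBELN 3 were at least 54365-fold and 55588-fold above PBS for Myoz2, and at least 52941-fold and 54132-fold for Csrp3. Myoz1 and Actn3, fast-fibre forms of calsarcin and alpha-actinin, stayed at or below 4.61 and 3.61. The cardiac alpha-actinin Actn2 read 4.48, 4.34 and 5.10 in PBS and 18.23, 7.60 and 18.97 in MBELN, and was thus above every PBS array in MBELN 2 too.

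The titin cap gene Tcap read 14.38 and 16.34 in MBELN 1 and MBELN 3 and 2.74 to 3.26 in the other arrays. Xirp1 and Xirp2, which encode actin-binding repeat proteins of the intercalated disc, read 10.65 and 10.01 in MBELN 1 and 10.09 and 11.48 in MBELN 3. In the other arrays Xirp1 lay between 3.79 and 6.00, and Xirp2 was below the dim level. Ldb3, a Z-disc PDZ-LIM protein, differed among PBS arrays, with 8.97, 4.91 and 8.27, and read 16.88, 3.59 and 17.06 in MBELN. Neb, the giant thin-filament ruler of skeletal muscle, lay at 3.08 to 4.57 in all arrays. Its smaller cardiac relative Nebl read 3.24, 3.97 and 3.94 in PBS and 12.66, 6.95 and 13.44 in MBELN. Nebl was thus above every PBS array in MBELN 2 too, and Neb passed the dim level in MBELN 3 alone.

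At the pointed end of the thin filament, the genes marked as skeletal were not all dim. Lmod2, the leiomodin of heart, read 16.40 and 16.61 in MBELN 1 and MBELN 3 and 2.94 to 4.03 elsewhere. Lmod3, a leiomodin of skeletal and heart muscle that is best known for skeletal disease, read 10.85 and 10.56 there and 2.46 to 2.99 elsewhere. Tmod4, the tropomodulin of skeletal fibres, read 3.29, 2.95 and 4.43 in PBS and 8.83, 3.23 and 9.65 in MBELN. With Myl1 and Tnnt1, Tmod4 and Lmod3 were the genes of the 3 skeletal classes that stood above 7 in both MBELN 1 and MBELN 3.

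Skeletal muscle markers outside the sarcomere were few beside them. Of 15 such genes, 4 lay above the dim level in MBELN 1 and in MBELN 3, with list medians of 3.04 and 3.43 against 2.94 to 3.03 in the other arrays. The highest on average were Ckm (muscle creatine kinase, also of heart), at 15.81 and 16.42, and Pygm (muscle glycogen phosphorylase), at 17.48 and 17.68. Also above the dim level in both arrays were Casq1, at 5.72 and 5.99, and Cacna1s, at 5.82 and 4.54. Pvalb passed it in MBELN 2 alone, at 8.89. The 4 transcription factors that define the lineage, Myod1, Myf5, Myf6 and Myog, lay between 2.42 and 3.43 in all 6 arrays. Cacna1s and these 4 factors were picked from outside the 4 highest means of the list.

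Of 6 stress, chaperone and turnover genes, 5 were highest in MBELN 1 and MBELN 3, the exception being Fbxo32. Mlip and Cryab were also above every PBS array in MBELN 2. Ankrd1, a stretch-induced cardiac repressor protein, read 3.74, 2.90 and 3.51 in PBS and 17.93, 4.13 and 18.83 in MBELN. Smpx, a small protein of the cell-edge attachment sites of fibres, read 15.92, 3.18 and 16.78 in MBELN and 4.46 to 4.69 in PBS. Trim63, the ubiquitin ligase MuRF1, read 4.67, 3.69 and 3.65 in PBS and 12.04, 3.47 and 11.26 in MBELN. In MBELN 2, Smpx and Trim63 were below the dim level, while Ankrd1 passed its dim level of 4.10 there by a narrow margin.

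MBELN 3 and MBELN 1 were alike in most sarcomere genes and differed in the atrial ones. Above the dim level in both arrays were 36 of the 49 genes, and 29 of these differed by less than 1 log2 unit. At least 1 unit higher in MBELN 3 were 6 genes, where 9.52% of the 10263 probe sets above the level in both arrays were so. Myl4 differed by 3.51, Myl7 by 2.70, Myl1 by 2.36, Tcap by 1.95, Tnnt1 by 1.72 and Xirp2 by 1.47. Only Myh7, with a difference of -1.33, was at least 1 unit lower, as were 7.42% of those probe sets. Each of these 7 differences stayed beyond 1 unit in size under quantile normalization and median centring, and under the former that of Myom2, -0.95 as deposited, passed 1 unit too. With 1 array on each side there is no test of any of them.

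Atrial genes outside the sarcomere did not all share this difference. Sln, the sarcolipin that restrains the calcium pump of atria, read 9.73 in MBELN 1 and 12.05 in MBELN 3, and Nppa, the atrial natriuretic peptide gene, read 18.22 and 19.57. Pam, an enzyme abundant in atrial granules, read 9.31, 13.63 and 9.68 in PBS and 15.52, 12.02 and 15.05 in MBELN. Nr2f2, a transcription factor of atrial identity, read 8.41, 9.41 and 8.50 in PBS and 10.00, 5.61 and 10.31 in MBELN. Both were thus above the dim level in all 6 arrays. Outside the 4 highest means of the list, Tbx5 read 7.54 in MBELN 1 and 7.43 in MBELN 3. Bmp10 read 2.79 and 5.05 there, and passed the dim level in MBELN 3 alone. Of the 6 genes on this list, 5 lay above the dim level in MBELN 1 and 6 in MBELN 3. Myl2, of the ventricle and of slow fibres, was at the top of the scale in both arrays, so no order is read for it. Of 3 ventricular genes outside the sarcomere, Irx4 read 7.15 and 7.56 and Hey2 read 4.66 and 5.13 in MBELN 1 and MBELN 3. Hand1 lay below the dim level there, at 3.25 and 3.37, against 4.24 to 5.01 in PBS.

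Several of the brightest genes shared exactly the same difference between these arrays. The highest value was 19.90 in MBELN 1 and 19.93 in MBELN 3, which differ by 0.0321. Myl2, Myl3, Tnnt2, Tnnc1, Tpm1, Myoz2 and Csrp3 each differed between these arrays by 0.0321 to within 0.0005, at values down to 18.88. Of the 176 probe sets with a value of at least 18 in MBELN 1, 55 had this same difference and 121 did not, and 13 with values under 15 had it too. Among the 12 sarcomere genes of at least 18 there, the other 5 differed otherwise, such as Cryab by -0.11 and Pdlim5 by 0.13. No order between the arrays is read for these 7 genes, and the cause of the shared difference was not tested.

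**Figure D3:**
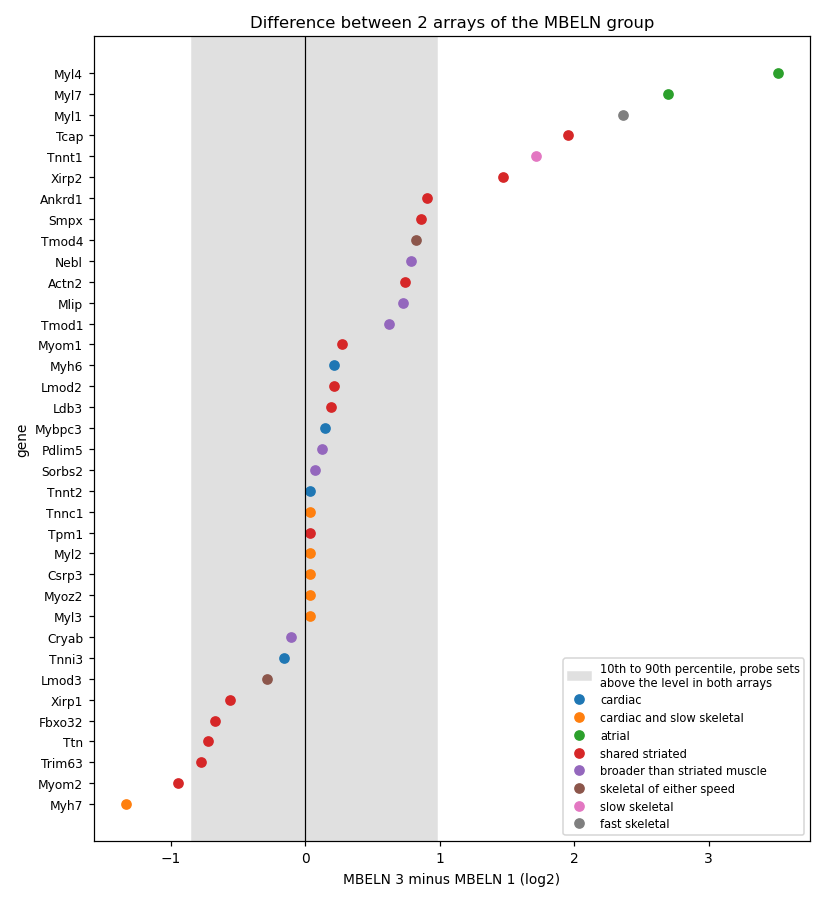
Difference of the deposited log2 values, MBELN 3 minus MBELN 1, of the 36 genes above the dim level in both arrays (1 point a gene, coloured by the muscle type that mainly uses it). Myl4, Myl7 and Myl1 lie farthest to the right, at 3.51, 2.70 and 2.36, Myh7 lies farthest to the left at -1.33, and the grey band spans the 10th to 90th percentile of 10263 probe sets, from -0.85 to 0.98.

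In MBELN 2, 15 of the 49 genes were above the dim level, and each of them was brighter in MBELN 1 and MBELN 3. Mlip, which encodes a lamin-interacting protein of muscle, read 3.71, 3.81 and 3.60 in PBS and 13.52, 12.65 and 14.25 in MBELN. Sorbs2, an adaptor of Z-discs and of neurons, read 5.90, 5.32 and 6.20 in PBS and 15.47, 11.92 and 15.54 in MBELN. Tmod1, the tropomodulin of heart, red cells and neurons, read 5.20, 4.81 and 4.57 in PBS and 14.54, 9.65 and 15.16 in MBELN. All 3 MBELN arrays lay above all 3 PBS arrays in these genes, and MBELN 2 was the lowest of the 3. Cryab, a small heat shock protein of heart, lens and glia, read 6.41, 7.62 and 6.79 in PBS and 19.57, 9.98 and 19.46 in MBELN. Pdlim5, a Z-disc and cytoskeletal LIM protein, went the other way in MBELN 2, with 8.28 against 12.28 to 13.27 in PBS and 19.37 and 19.50 in MBELN 1 and MBELN 3.

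Set against the mean of PBS 1 and PBS 3, the other arrays of the lower hybridisation control level, MBELN 2 differed by 8.99 in Mlip, 5.88 in Sorbs2, 4.77 in Tmod1 and 4.76 in Myl4. The difference was -5.03 in Ldb3, -4.81 in Pdlim5 and -4.74 in Tpm1. With 1 MBELN array these are values of that array. Beside these, 12 of 12 neuronal and 9 of 9 glial genes lay above the dim level in MBELN 2, where 6 and 2 did in PBS 1 and 7 and 3 in PBS 3. MBELN 2 lay above every PBS array in 18 of the 49 genes and below every one in 14, where 33.3% and 36.2% of all probe sets did, values below the dim level included.

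**Figure D4:**
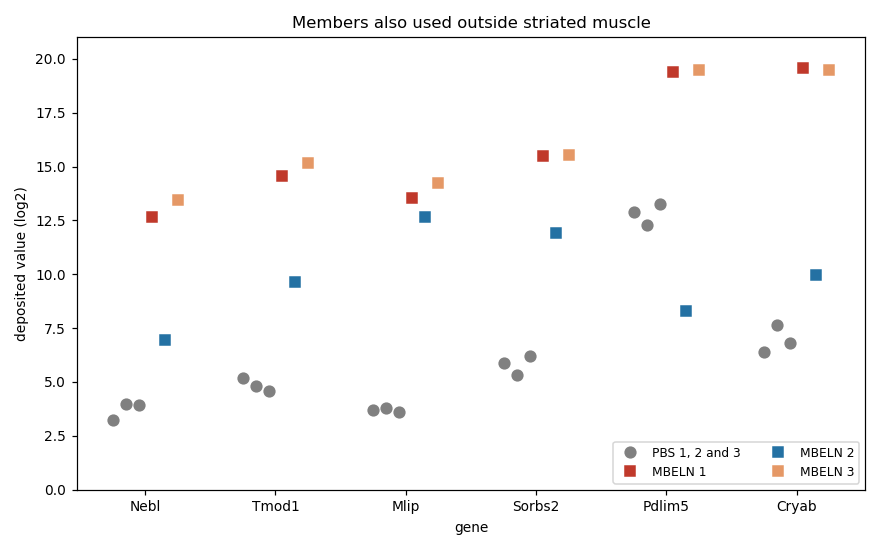
Deposited log2 values of 6 members that are also used outside striated muscle, in the 3 PBS arrays (grey circles) and the 3 MBELN arrays (squares). MBELN 2 (blue) lies between PBS and the other MBELN arrays for Nebl, Tmod1, Mlip, Sorbs2 and Cryab, and below PBS for Pdlim5, at 8.28.

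In the comparison of all 3 MBELN with all 3 PBS arrays, few of these genes passed the test. All 3 MBELN arrays also differ from the PBS arrays in tissue markers, as given above. Treatment and tissue markers therefore cannot be told apart in this comparison. Tested with limma, 5.18% of the 22206 probe sets had a Benjamini-Hochberg adjusted p below 0.05. MBELN was the higher group in 1.42% of them all and the lower in 3.76%. Of the 49 genes, 3 passed, all higher, namely Mlip, Sorbs2 and Tmod1. Nothing is read from this count, since the genes were proposed with these differences known. Their median difference, MBELN minus PBS, was 5.52, and that of all probe sets was 0.09. The groups did not overlap in 18 of the 49 genes, each higher in MBELN, where 11.9% of all probe sets were higher without overlap and 13.4% lower. These counts include values below the dim level, which have no order. Of the 18, Myh7b and Actn3 lay below it in every array. Myh6, Myh7, Ttn, Mybpc2, Tcap, Myom2 and Lmod3 lay below it in the PBS arrays and in MBELN 2.

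Large differences without a call went with the spread of the MBELN group. Myh6 averaged 13.85 ± 8.80 in MBELN and 3.39 ± 0.23 in PBS (SD, n = 3). The groups were 10.45 ± 4.28 apart (SE, limma, adjusted p = 0.288). Myl4 differed by 7.71 ± 1.54 (SE, n = 3; limma, adjusted p = 0.0537) and Nebl by 7.30 ± 1.75 (limma, adjusted p = 0.0884). Tnni1 differed by -2.65 ± 2.25 (limma, adjusted p = 0.602), a value set by PBS 2. Without MBELN 2, 34 of the 49 genes were called, all higher, beside 16.8% of all probe sets (9.51% higher, 7.32% lower), and the median difference was 8.83. Without PBS 1, PBS 3, MBELN 1 or MBELN 3, 1 gene was called in each fit, which was Mlip, beside 1.7%, 1.71%, 2.26% and 2.01% of all probe sets. Without PBS 2 the calls were Mlip and Sorbs2, beside 7.21%.

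Within hybridisation control levels the comparison differed. Each level leaves 1 group with a single array, assumed to vary like the pair of the other group, with 1 residual degree of freedom, so these limma counts rest on the spread of 1 pair. Where the controls were higher, which leaves PBS 2 as the lone PBS array, 33 genes were called higher and 2 lower (Tnni1 and Fbxo32, which rest on the high values of PBS 2), beside 9.59% and 9.21% of all probe sets (18.8% in all), with a median difference of 8.71. In the lower level, with MBELN 2 as the lone MBELN array, 7 were called higher and 6 lower, beside 16.8% and 15.8% of all probe sets (32.6% in all), and the median difference was 0.02. With the level as a block, 3 genes were called higher and 1 (Fbxo32) lower, beside 1.72% and 4.48% of all probe sets (6.19% in all), and the median difference was 3.64. Each level holds arrays with other markers, as given above, so level and tissue markers cannot be told apart.

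Other sarcomere genes, from a list of 50 with 49 measured, showed the same arrays. Their median was 10.40 in MBELN 1 and in MBELN 3, 3.72 in MBELN 2 and 3.74 to 3.87 in PBS. Above the dim level were 38 and 39 of them in MBELN 1 and MBELN 3, 22 in MBELN 2 and 18 to 23 in PBS. Past the threshold were 4 genes, beside 5.18% of all probe sets. The 1 higher was Fhod3, a formin that assembles thin filaments, and the 3 lower were Tpm2, Tpm3 and Lmod1, tropomyosins and a leiomodin of smooth muscle and other cells (Fhod3, Tpm2 and Lmod1 were named after their values had been seen). Tpm2 differed by -8.56 and Tpm3 by -3.13 (limma, adjusted p = 0.0139 and 0.0381). Tpm3 and Lmod1 lost their calls with quantile normalization (limma, adjusted p = 0.0631 and 0.0652) and with a trended robust variance (0.108 and 0.0740), and all 4 lost theirs with the replicate block. Without PBS 1 or without PBS 3, none of the 49 was called by limma. Without MBELN 1 only Tpm2 was, without MBELN 3 only Fhod3, and without MBELN 2 there were 31 calls, 26 higher and 5 lower. The brightest on average were Capzb and Pdlim1. Capzb, a subunit of the thin-filament capping protein that all cells use, read 15.28 to 15.95 in PBS and 15.31 to 16.11 in MBELN. Pdlim1, an actin-associated LIM protein, read 18.42 to 18.66 in PBS and 14.70, 8.61 and 15.22 in MBELN.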

How the data were processed

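The table deposited by the authors holds a value for every probe set in each array. The authors' deposited values were read as log2, a scale that no header states, from their range (highest value 19.93, medians 4.38 to 4.55). The submitters' processing notes name Transcriptome Analysis Console 4.0. Background correction, normalization and genome build: not given in the sources used here. Of 28846 probe sets, 6640 array controls were left out. Symbols came from the platform annotation, and all 49 matched the RefSeq gene table by Entrez identifier.

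Groups came from sample titles. MBELN was compared with PBS by lmFit and eBayes in limma 3.58.1 (R 4.3.3, statmod 1.5.0), without covariates, two-sided. A check on simulated data gave both groups the same spread, so it does not cover genes whose groups differ in spread, such as Myh6. Alternatives were other normalizations, a dim filter, variance models, array weights, blocks and arrays left out. Leaving out PBS 2 and MBELN 2 was added after seeing the data. Any of the 49 genes may be named, and of other lists the 4 genes with the highest mean. Members and lists were chosen with earlier results of these data known. Promoters came from RefSeq (GRCm38.p6).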

Additional observations from a re-analysis of the deposited data

How the results depend on the processing

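Each of the 49 genes had 1 probe set, so averaging all probe sets of a gene could change nothing. With quantile normalization and with median centring, the count of these genes past the threshold was 3, beside 5.1% and 5.23% of all probe sets. It was 4 with a trended robust variance, beside 3.9%. It was 4 with a block for the hybridisation controls' level, beside 6.19%, and 2 with the replicate number as a block, beside 2.05%. It was 5 with the dim filter, which left 26 of the genes to test and called 11.1% of all probe sets tested, 35 with array weights, 35 within the higher and 13 within the lower level, and 35 without PBS 2 and MBELN 2. With 1 array left out, it ranged from 1 to 34. The cause was not tested. Over all probe sets, 1150 passed in the main comparison, 5757 with array weights, 4174 and 7234 within the higher and lower level, 6769 without PBS 2 and MBELN 2, and 377 to 3738 with 1 array left out. With the replicate block the count was 456. The labels do not say that equal numbers mark a shared animal, batch or day, so the numbers were not taken as pairs. Deviations of same-numbered arrays correlated at -0.03, -0.07 and -0.06, and no array correlated best with its own number. The MBELN arrays differ among themselves in tissue markers, so these correlations cannot decide whether numbers mark pairs. The median difference was 5.52 with all arrays, 0.02 within the lower level, and 3.88 to 8.83 with 1 array left out. Within the lower level 20 of the 44 positive differences turned negative and 2 negative ones positive. Some of these, such as Myoz2, Mybpc3 and Csrp3, compare values below the dim level in every array of this level, which have no order. Among those that turned negative were Ldb3 (-5.03), Myom1 (-2.28), Smpx (-1.35) and Pdlim5 (-4.81). MBELN 2 is the only MBELN array of this level, so these differences are given as values of that array. Quantile normalization and median centring ended or added no call among these 49 genes. The number of arrays and the top of the scale limit precision.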
